A study of Rattus norvegicus with 9 samples.

Results

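The protein-coding genes of the cytosolic ribosome were followed in the hippocampus of control rats and of rats with cognitive impairment after stroke. Members were the genes of the deposited count tables named Rpl or Rps with a number, optionally followed by a, x or y, together with Rpsa, Rplp0, Rplp1 and Rplp2, with at least 100 counts summed over the 9 libraries. The kinase genes named Rps6k were left out. The rule found 73 genes, 44 of the large and 29 of the small subunit, among 18733 genes in the tables, and all 73 passed the filter on low counts that left 14840 genes for testing. RNA came from hippocampal tissue of male rats, 3 per group, with 1 library per rat. The control rats had regular feeding. The rats of the PSCI group (post-stroke cognitive impairment) and of the taVNS group had middle cerebral artery occlusion (MCAO), a surgical model of ischaemic stroke, and had scored under a limit stated as 20% of the control mean in 2 memory measures. They were then divided at random into PSCI rats, fed regularly for 2 weeks, and taVNS rats, given transcutaneous auricular vagus nerve stimulation, a stimulation of the vagal nerve branch in the skin of the ear, for 14 days. The labels mention no sham operation for the control group and no sham stimulation for the PSCI group, and they give neither the hemisphere sampled nor the age of the rats. The extraction text speaks of mice, while the organism label and the gene identifiers are those of the rat.

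Each cytosolic ribosome carries a small subunit, which reads the messenger RNA, and a large subunit, which joins amino acids, and both are built from ribosomal RNA and one copy of most of the ribosomal proteins. The messenger RNAs of these proteins are abundant and short, and they are known to begin with an uninterrupted run of C and U bases, the terminal oligopyrimidine tract, through which the mTOR pathway controls their translation. In the hippocampus protein synthesis at dendrites and cell bodies is needed for lasting synaptic change, and cells that grow or divide make more ribosomes.

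The stretches around the annotated starts of 7 genes described further on are printed here, because runs of pyrimidines were common near the starts of the members. Each is 50 bases, 25 before and 25 from the annotated start, read 5′ to 3′ on the strand of the gene from RefSeq on the assembly GRCr8, which is newer than the assembly named in the submitters' processing notes. Capitals mark the longest run of C and T.
Rps2: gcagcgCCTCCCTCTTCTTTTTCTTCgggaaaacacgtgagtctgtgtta
Rplp0: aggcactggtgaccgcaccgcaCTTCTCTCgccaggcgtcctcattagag
Rpsa: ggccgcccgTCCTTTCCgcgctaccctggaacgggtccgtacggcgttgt
Rpl22: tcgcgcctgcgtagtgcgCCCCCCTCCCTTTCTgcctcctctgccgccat
Rps4x: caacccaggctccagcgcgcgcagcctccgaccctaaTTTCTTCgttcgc
Rpl21: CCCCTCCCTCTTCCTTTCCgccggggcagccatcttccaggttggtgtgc
Rps7: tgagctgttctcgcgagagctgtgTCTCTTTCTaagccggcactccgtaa
The stretches lie at chr10:14251823-14251872 on the plus strand (Rps2), chr12:46718366-46718415 on the minus strand (Rplp0), chr8:128728854-128728903 on the plus strand (Rpsa) and chr5:168117936-168117985 on the plus strand (Rpl22). The other 3 lie on minus strands, at chrX:71342897-71342946 (Rps4x), chr12:13386129-13386178 (Rpl21) and chr6:50999421-50999470 (Rps7). The longest run measured 20 bases in Rps2, 19 in Rpl21, 15 in Rpl22, 9 in Rps7, 8 in Rplp0 and Rpsa, and 7 in Rps4x. The runs of Rps2, Rplp0, Rpl22 and Rps7 include the annotated start, those of Rpl21 and Rpsa end before it, and that of Rps4x begins after it. Starts were found for 57 of the 73 members. A run of at least 8 pyrimidines on the strand of the gene was present in 46 of these 57 (80.7%), against 20.1% of 14930 genes of the count tables with a start, and on the other strand in 7.02% against 20.4%. A run of that length which included the annotated start itself was present in 28 members (49.1%), against 4.61% of the genes of the tables. The letters CTTTCC, which when present are part of a run of pyrimidines, were found in 29.8% of the members and 2.73% of the genes of the tables, and on the other strand in 1.75% and 2.02%. A match describes these letters alone.

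The libraries held 13747381 to 15415684 counts, and no pair of libraries within a group agreed within counting noise. Reads from ribosomal protein genes are hard to place, because the genome holds many near-identical processed copies. A member's count was a whole number in 41.1% to 49.3% of cases per library, against 91.1% to 91.6% over all genes, and 26 members had no whole count in any library, while 25 were whole in all 9. The deposited counts and RPKM (reads scaled to gene length and library size) of the members gave the same differences between groups within 0.12 on the log2 scale, while 213 of 13901 genes compared differed by more than 0.25. Library PSCI 2 stood apart: its neuronal marker sum was 6177 CPM (counts scaled to library size), against 9698 to 12270 in the other 8 libraries. Marker sums of meningeal fibroblasts were 288.5 CPM in PSCI 2 and 414.6 CPM in taVNS 3, and 54.8 to 93.8 CPM elsewhere. The directions, unadjusted and called counts and PSCI share of the members below are given with and without them. So are the subunit medians, except those of taVNS against control. The counts of separated groups, the fit scaled to the ribosomal protein counts, the other gene lists and the marker sums are given with all libraries.

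Summed over both subunits, the ribosomal protein genes took a larger part of the counts in 2 of the 3 PSCI libraries than in any other library. Their share of the total count was 1.35%, 1.07% and 1.08% in control libraries 1 to 3, 1.15%, 1.71% and 1.49% in PSCI, and 1.203%, 0.997% and 1.17% in taVNS. PSCI 2 and PSCI 3 were the highest, control 1 was the next, and PSCI 1 lay between control 2 and control 1, so the control and PSCI groups overlapped. The same held for taVNS, since taVNS 1 and taVNS 3 exceeded PSCI 1. Group means were 1.17% ± 0.156 in control, 1.45% ± 0.280 in PSCI and 1.124% ± 0.111 in taVNS (SD, n = 3). The PSCI mean was 1.32% without PSCI 2, and the taVNS mean ran from 1.084% to 1.187% when 1 library was left out. The exact binomial 95% interval of the highest library ran from 1.70% to 1.72% and that of the lowest from 0.992% to 1.00%. The large subunit genes took 0.699% ± 0.0928 of the counts in control, 0.846% ± 0.166 in PSCI and 0.673% ± 0.0680 in taVNS. The small subunit genes took 0.467% ± 0.0633, 0.606% ± 0.115 and 0.451% ± 0.0426. PSCI 2 was the highest of the 9 libraries for 51 of the 73 genes after scaling, control 1 for 14 and PSCI 3 for 8, and taVNS 2 was the lowest for 48.

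**Figure D1:**
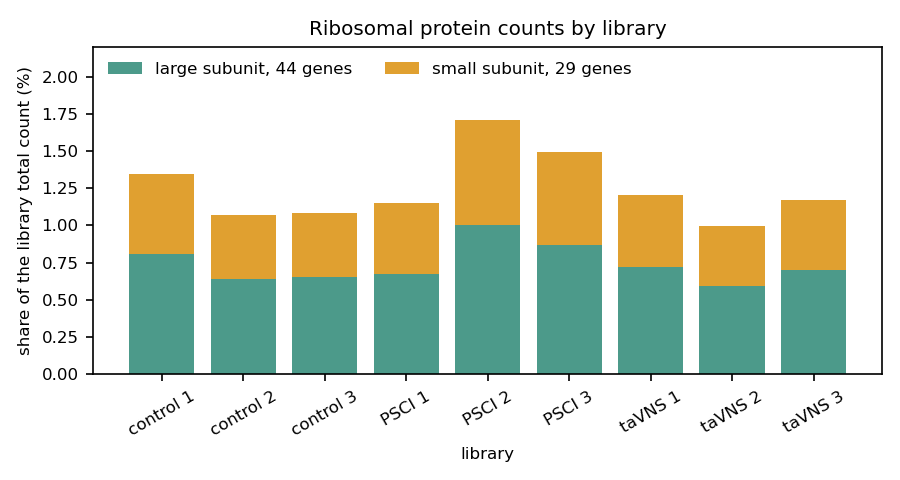
Share of the total count (%, y axis) of the 44 large and 29 small subunit genes in each of the 9 libraries (x axis), as stacked bars. The bars of PSCI 2 (1.71%) and PSCI 3 (1.49%) are the tallest, and that of PSCI 1 (1.15%) stands within the range of the control bars.

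PSCI was compared with control to see how rats with stroke and impairment differ from control rats. No group had stroke without impairment, so the parts of stroke and of impairment cannot be told apart. Fitted differences of the ribosomal protein genes lay mostly above 0: 68 of 73 members (93.2%) against 50% of all genes tested. Medians were 0.26 log2 in the large and 0.27 in the small subunit and -0.00 over all genes. Scaling libraries to the ribosomal protein counts gave subunit medians of -0.01 and 0.01. That scaling sets the family near 0 by construction, so these values cannot test the shift. In edgeR's quasi-likelihood test with Benjamini-Hochberg adjustment over all genes, 4 members rose, among them Rps2, Rplp0 and Rpl22, and 0 fell. These are 5.5% of the members, against 7.71% of all genes called higher and 2.14% called lower (9.85% in all), so the calls were no more frequent among members than among genes at large. The CPM values of 5 members lay wholly above control, or 6.8%, against 16.2% of all genes, and those of 0 members lay wholly below, against 11.3%. At an unadjusted p under 0.05 there were 19 members higher (26.0%, against 16.2% of all genes) and 0 lower (against 9.11%).

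Among small subunit genes, Rps2, a protein of the site where the messenger enters the subunit, was at 448, 378 and 347 CPM in control and at 503, 774 and 782 CPM in PSCI. All 3 PSCI values lay above the control values, and PSCI 1 was nearest to them. Rps2 rose by 0.81 ± 0.173 log2 (SE), or 1.75-fold (adjusted p = 0.02004). Rps4x, the X-linked form of a small subunit protein, was at 270, 223 and 224 CPM in control and 276, 403 and 382 CPM in PSCI. The groups were separated only by the narrow gap between control 1 and PSCI 1, and its difference of 0.56 ± 0.153 log2 lay just past the threshold (adjusted p = 0.0501). Rpsa, a small subunit protein also known as the laminin receptor, was at 322, 260 and 251 CPM in control and 316, 486 and 443 CPM in PSCI, so that PSCI 1 lay below control 1 (0.58 ± 0.161 log2, adjusted p = 0.0541). Rps20, a protein of the subunit head, had the same overlap, with 90.5, 68.3 and 64.1 CPM against 83.9, 139 and 121 CPM (0.62 ± 0.190 log2, adjusted p = 0.0721).

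Among large subunit genes, Rplp0, the base of the stalk that recruits translation factors, was at 321, 249 and 222 CPM in control and at 359, 514 and 484 CPM in PSCI. The groups did not overlap. Rplp0 rose by 0.77 ± 0.165 log2, or 1.71-fold (adjusted p = 0.0199). The 2 proteins that complete the stalk did not pass the test: Rplp1 differed by 0.12 ± 0.148 log2 (adjusted p = 0.680) and Rplp2 by 0.37 ± 0.141 log2 (adjusted p = 0.142). Rpl22, an RNA-binding protein of the large subunit, was at 40.7, 31.9 and 31.1 CPM in control and 45.9, 59.0 and 55.1 CPM in PSCI. Again the groups did not overlap. Rpl22 rose by 0.63 ± 0.137 log2, or 1.54-fold (adjusted p = 0.0218).

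**Figure D2:**
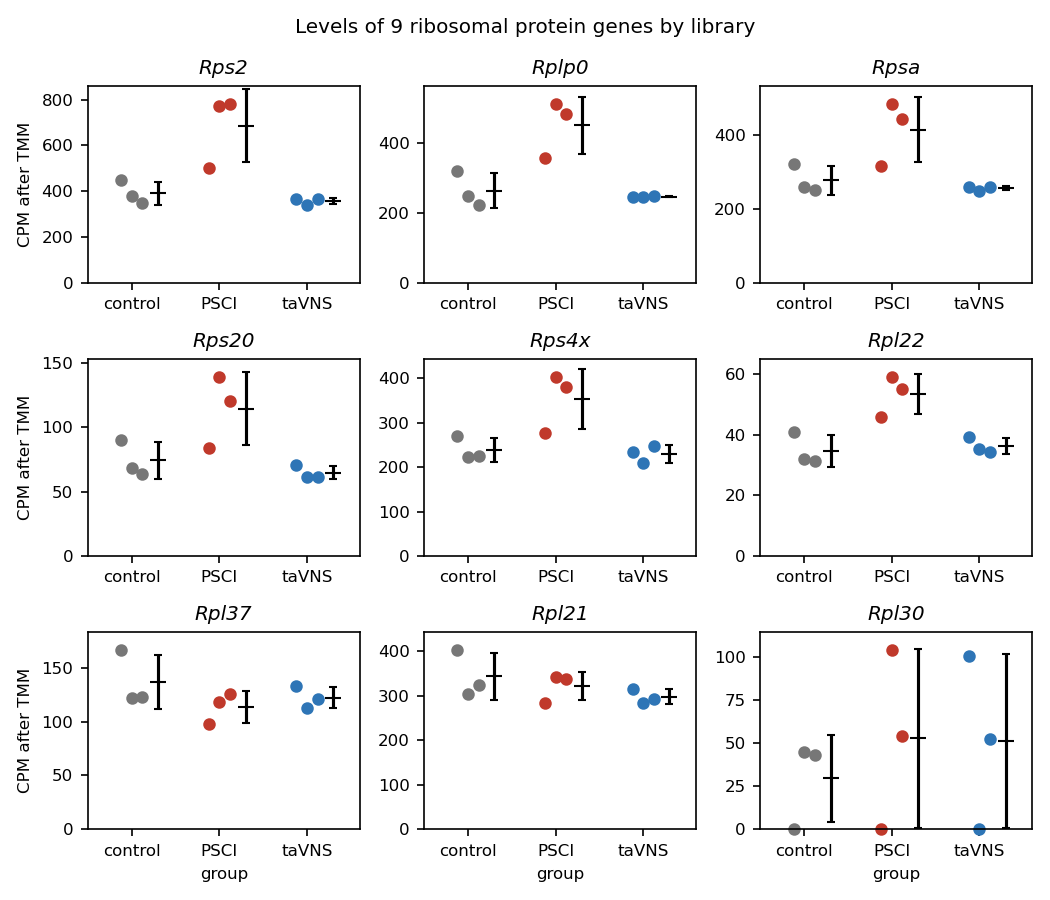
CPM after TMM scaling (y axis, from 0) of 9 ribosomal protein genes in each library of the control, PSCI and taVNS groups (x axis); points are libraries, and the bar beside them is the mean ± SD of 3. For Rps2, Rplp0, Rps4x and Rpl22 all PSCI points lie above all control points, with PSCI 1 the lowest of the 3, while the points of Rpl30 fall at 0 or near it in 1 library of each group.

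The lowest fitted differences belonged to Rpl37, Rpl21 and Rps7. Rpl37, a small zinc-binding protein of the large subunit, was at 166, 121.7 and 122.7 CPM in control and 97.3, 118 and 125 CPM in PSCI (-0.27 ± 0.145 log2, adjusted p = 0.290). Only PSCI 3 of the PSCI libraries reached the 2 lower control values. Rpl21, another large subunit protein, was at 402, 303 and 325 CPM against 285, 342 and 337 CPM (-0.10 ± 0.127 log2), a sign that changed without control 1 (0.03). Rps7, a small subunit protein also needed for subunit assembly, differed by -0.06 ± 0.141 log2, and its sign changed without control 1 (0.09), without PSCI 1 (0.03) and on the RPKM scale (0.0044). Rps21 and Rpl9 made up the 5 members with values below 0.

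Other members named for their known tasks did not pass the test in this comparison. Rps6, the target of the S6 kinases, differed by 0.30 ± 0.141 log2 (adjusted p = 0.230), and Rps3, a protein of the messenger entry site, by 0.30 ± 0.139 log2 (adjusted p = 0.209). Rpl5 and Rpl11, which carry the 5S ribosomal RNA into the large subunit and can bind Mdm2, the regulator of p53, differed by 0.14 ± 0.113 and 0.27 ± 0.163 log2. Rpl3, at the peptidyl transferase centre, differed by 0.21 ± 0.133 log2, Rpl4, of the exit tunnel, by 0.11 ± 0.131, and Rpl10, which joins the subunit late in its assembly, by 0.26 ± 0.173. Rps27a, made as a fusion with ubiquitin, differed by 0.15 ± 0.140 log2. Rpl41, one of the shortest known proteins, had a larger difference of 0.50 ± 0.162 log2 (adjusted p = 0.0909), whereas Rpl38, known from the translation of Hox messengers in the embryo, had 0.00 ± 0.114.

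The number of called members depended on single libraries. It was 22 without PSCI 1, 2 without PSCI 2, 0 without control 2, control 3 or PSCI 3, and 0 without PSCI 2 and taVNS 3 together, and adjusted p over the alternatives reached 0.0894 for Rps2, 0.0880 for Rplp0 and 0.160 for Rpl22. Rpl22 was not called without PSCI 2 either, and the count was 3 without any 1 of the taVNS libraries. The large and small subunit medians ranged from 0.12 and 0.16 without PSCI 2 to 0.37 and 0.40 without PSCI 1, and were 0.10 and 0.14 without PSCI 2 and taVNS 3 together. Without both, 57 members (78.1%, against 47.7% of all genes) lay above 0, and 7 were higher at an unadjusted p under 0.05 (9.59%, against 13.2%). The calls of Rps2, Rplp0 and Rpl22 were also lost when only the 2 groups were fitted.

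The comparison of taVNS with PSCI asks what differs after stimulation in impaired rats, and it shares the 3 PSCI libraries with the comparison above, so the values of the pair are not independent. Fitted differences lay below 0 for 72 of 73 members (98.6%, against 50.3% of all genes, with 49.7% above 0). Medians were -0.33 log2 in the large and -0.35 in the small subunit and -0.00 over all genes. With libraries scaled to the ribosomal protein counts, which sets the family near 0 by construction, the subunit medians were 0.03 and -0.00. By edgeR's quasi-likelihood test 5 members fell (Rps2, Rplp0, Rps20, Rpsa and Rpl22) and 0 rose. This is 6.8% of the members, beside 4.91% of all genes called lower and 0.842% called higher (5.75% in all). In 28 members (38.4%) all taVNS values lay below all PSCI values, against 15.2% of all genes. Those 28 were 15 of 44 large and 13 of 29 small subunit genes, and 0 members were separated upwards, against 10.6% of all genes. At an unadjusted p under 0.05, 35 members were lower (47.9%, against 14.1% of all genes) and 0 higher (against 7%).

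Rps2 was at 364, 342 and 366 CPM in taVNS, all under the lowest PSCI library (503 CPM), and within or close to the control values. It fell by 0.94 ± 0.173 log2, a 1.92-fold lower level (adjusted p = 0.0168). Rplp0 was at 246, 246 and 249 CPM in taVNS, against 359 CPM or more in PSCI. It fell by 0.87 ± 0.165 log2, 1.83-fold (adjusted p = 0.0186), and its taVNS libraries differed by an SD of 1.76 CPM. Rps20 was at 70.6, 61.6 and 61.7 CPM in taVNS and fell by 0.83 ± 0.191 log2 (adjusted p = 0.0396). Rpsa was at 259, 250 and 261 CPM and fell by 0.69 ± 0.162 log2 (adjusted p = 0.0404). For both genes the 3 taVNS values lay below every PSCI value. Rpl22 was at 39.2, 35.2 and 34.3 CPM and fell by 0.56 ± 0.137 log2 (adjusted p = 0.0470), again with no overlap.

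Rps4x lay just past the threshold, with -0.62 ± 0.154 log2 (adjusted p = 0.0501). Rpl37 was the member with a value above 0 (0.11 ± 0.145 log2, adjusted p = 0.735), with 133, 113 and 121 CPM in taVNS. Values near 0 included those of Rps15a (-0.09 ± 0.131 log2), a small subunit protein, Rpl38 (-0.09 ± 0.114) and Rpl30 (-0.05 ± 1.70), whose levels are described below. The stalk proteins Rplp1 and Rplp2 differed by -0.31 ± 0.148 and -0.44 ± 0.141 log2, and Rps6 by -0.35 ± 0.141 log2. Rpl7a, a large subunit protein, had -0.57 ± 0.174 log2 and Rpl36a -0.51 ± 0.166, both short of the threshold (adjusted p = 0.0970 and 0.116).

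**Figure D3:**
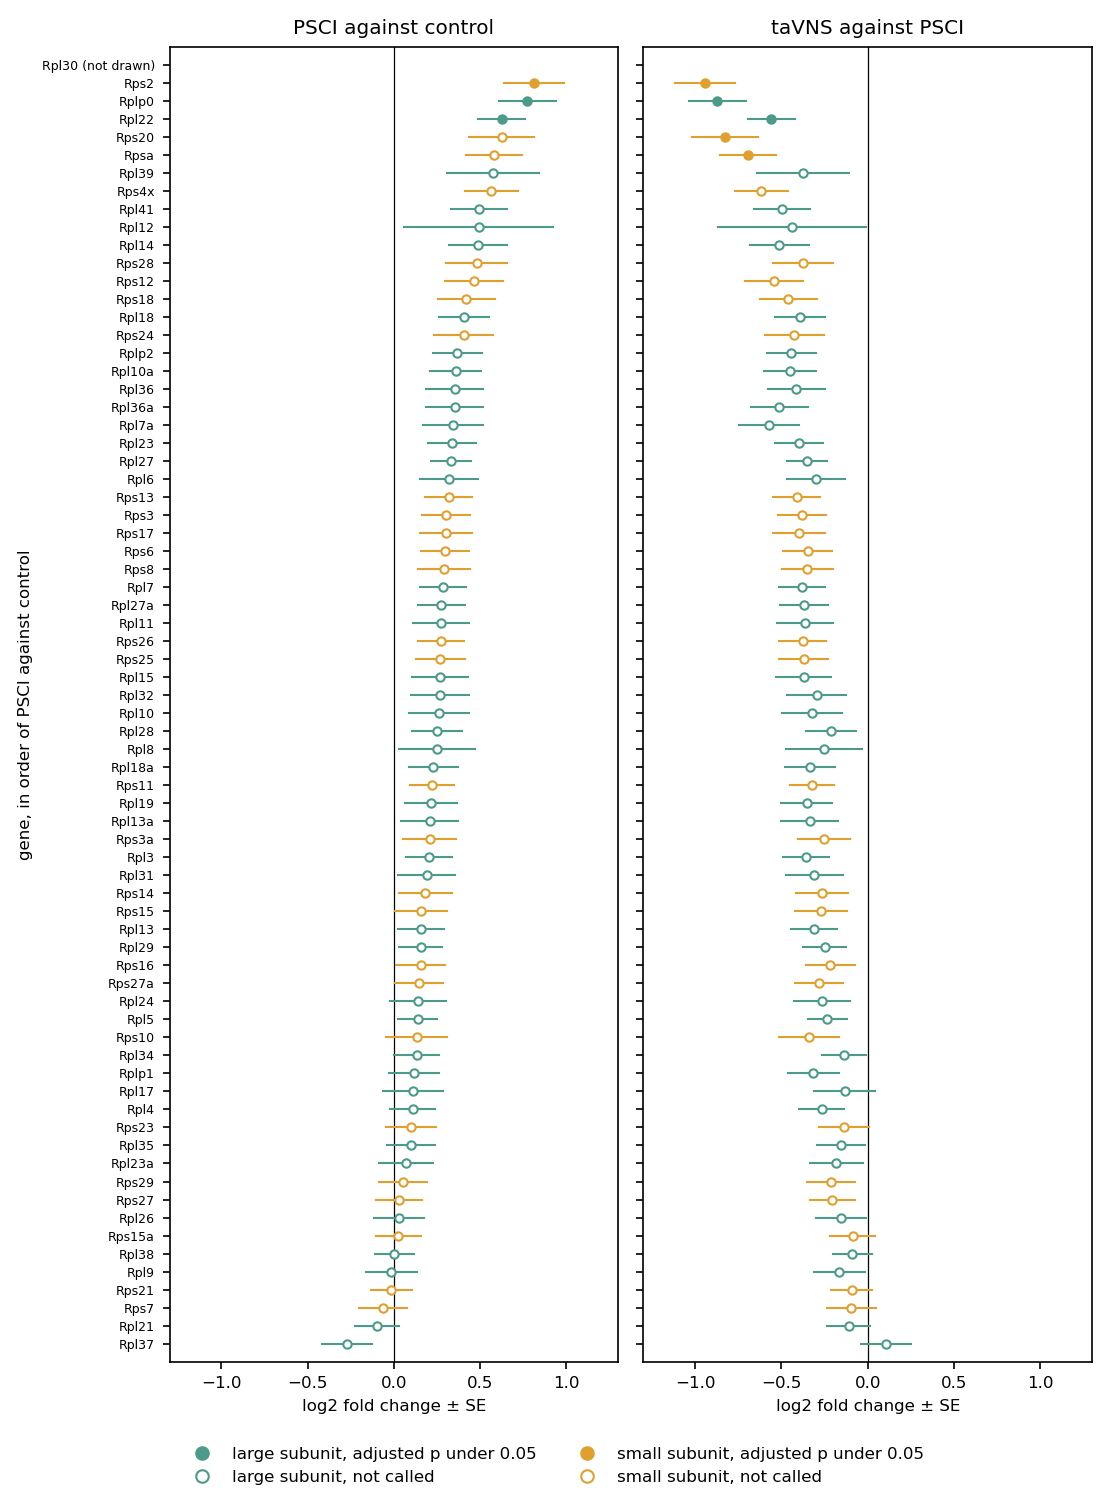
Fitted log2 fold change ± SE (x axis) of 71 ribosomal protein genes (y axis, in the order of PSCI against control) for PSCI against control (left) and taVNS against PSCI (right); filled points passed an adjusted p of 0.05, Rpl30 is not drawn because its SE was 1.70 or more, and 1 other gene is left out. Most points lie right of 0 on the left and left of 0 on the right, the panels share the PSCI libraries, and 3 and 5 points are filled.

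The calls in this comparison also turned on single libraries. The count was 27 without PSCI 1, 2 without control 2, control 3 or PSCI 2, and 0 without PSCI 3, without any 1 taVNS library or without PSCI 2 and taVNS 3 together. The 2 calls kept without control 2, control 3 or PSCI 2 were those of Rps2 and Rplp0. With both of PSCI 2 and taVNS 3 left out the medians of the large and small subunit were -0.24 and -0.28, 69 members (94.5%, against 49% of all genes) lay below 0, and 12 were lower at an unadjusted p under 0.05 (16.4%, against 10.4%). The call of Rpl22 held in 5 of 22 alternatives and was lost with other scalings (adjusted p = 0.0532 with RLE and 0.0562 with total counts), and those of Rps20 and Rpsa held in 8 of 22 and were lost by limma-voom (adjusted p = 0.0594 and 0.0588).

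In taVNS against control no member passed the test (0 of 73 by edgeR's quasi-likelihood test, beside 0% of all genes), with 0 members at an unadjusted p under 0.05 (against 2.17% of all genes higher and 1.58% lower) and 0 by DESeq2 or limma-voom. The subunit medians were -0.09 in both and changed sign without control 1 (0.04 in both). Of the members 63 lay below 0 (86.3%, against 49.4% of all genes). Without PSCI 2 and taVNS 3 no member passed, and 65 lay below 0 (89%, against 52.1% of all genes). In that fit 0 members had an unadjusted p under 0.05, against 1.58% of all genes higher and 1.55% lower. Apart from Rpl30 (0.80 ± 1.72 log2), fitted values ran from -0.23 for Rpl7a to 0.20 for Rpl39, and Rps28, a small protein of the small subunit, had 0.10 ± 0.176. The next lowest were Rps10 (-0.21 ± 0.176), another small subunit protein, and Rpl21 (-0.21 ± 0.127). The 3 taVNS values of Rpl3 (376.7, 367.6 and 386.6 CPM) lay below the 3 of control (469, 398.7 and 387.2 CPM), the 1 separated member, against 5.4% of all genes separated downwards and 5.74% upwards. This comparison shares libraries with both others.

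The fitted differences of the members were of unequal size, but no member passed once libraries were scaled to the ribosomal protein counts, as given below. The ratio of the subunits was described and not tested. The ratio of large to small subunit counts was 1.494, 1.499 and 1.504 in control, 1.396, 1.413 and 1.382 in PSCI and 1.503, 1.481 and 1.489 in taVNS. Every PSCI library lay below every library of the other groups, PSCI 1 included. Without the 2 small subunit genes Rps2 and Rpsa, chosen after their values were seen, the ratio was 1.734, 1.757 and 1.742 in control, 1.679, 1.738 and 1.715 in PSCI and 1.732, 1.727 and 1.726 in taVNS. PSCI 2 then lay among the values of the other groups, while PSCI 1 and PSCI 3 remained below every control and taVNS library. Since Rps2 and Rpsa were among the most different members, a narrower gap without them follows from the choice. Both ratios include Rpl30 and Rpl12, which varied widely within groups (104 and 231 CPM in PSCI 2, 0.0682 and 80.4 CPM in PSCI 1). The ratio without Rpl30 and Rpl12 was not taken.

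**Figure D4:**
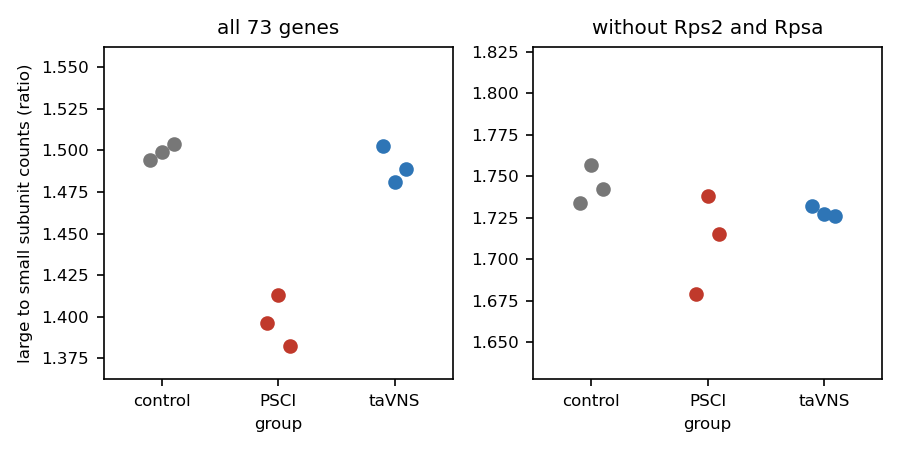
Ratio of large to small subunit counts (y axis, not from 0) per library in the control, PSCI and taVNS groups (x axis), for all 73 genes (left) and without Rps2 and Rpsa (right). On the left the PSCI points (1.382 to 1.413) lie under all others, and on the right 1 of the 3 lies among the other groups.

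Levels were also taken relative to the library's median ribosomal protein gene (log2 CPM minus the median of the members), which removes what the members share. On this scale 12 members lay wholly higher in PSCI than in control (4 large and 8 small subunit genes, against 8.5% of all genes) and 17 wholly lower (12 large and 5 small, against 11.8%). Rps2 stood 1.43, 1.64 and 1.41 log2 above the median member in control, 1.89, 1.94 and 2.10 in PSCI and 1.38, 1.52 and 1.46 in taVNS. Rplp0 stood 0.95, 1.03 and 0.77 above it in control, 1.41, 1.35 and 1.40 in PSCI and 0.81, 1.05 and 0.90 in taVNS. In both genes PSCI 1, whose summed share was in the range of the controls, lay near PSCI 2 and above every control and taVNS library. The mean differences of PSCI from control were 0.48 for Rps2, 0.47 for Rplp0, 0.32 for Rpl22, 0.30 for Rps20, 0.26 for Rpsa and 0.24 for Rps4x.

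At the other end Rpl37 stood at 0.00, 0.00 and -0.09 in control, at -0.48, -0.77 and -0.55 in PSCI and at -0.08, -0.08 and -0.14 in taVNS. All PSCI libraries lay below all others. Rpl21 stood at 1.27, 1.32 and 1.32 in control, 1.07, 0.77 and 0.88 in PSCI and 1.17, 1.25 and 1.14 in taVNS, and Rps7 at 1.01, 1.07 and 0.93, then 0.78, 0.50 and 0.65, then 0.95, 0.94 and 0.92. Both were lowest in PSCI 2. In taVNS against PSCI 9 members were wholly lower on this scale (against 6.02% of all genes) and 19 wholly higher (against 29.5%), and in taVNS against control 2 were lower and 2 higher (against 0.876% and 4.68%).

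Tested as a fit with libraries scaled to the ribosomal protein counts, an alternative added after the data were seen, no member passed in any comparison (0 by edgeR's quasi-likelihood test, beside 4.67% of all genes called higher and 1.74% lower in PSCI against control, and 1.08% and 2.53% in taVNS against PSCI). The unadjusted p was under 0.05 for 6 of 73 members in PSCI against control (5 higher and 1 lower). In taVNS against PSCI it was so for 4 (1 higher and 3 lower). The share of all genes at that level was not taken under this scaling, so these counts have nothing to be set against. The members nearest to the threshold were Rpl37 in PSCI against control (-0.52 ± 0.151 log2, adjusted p = 0.0656) and Rps2 in PSCI against control (0.53 ± 0.167, adjusted p = 0.0838) and in taVNS against PSCI (-0.57 ± 0.167, adjusted p = 0.0871).

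**Figure D5:**
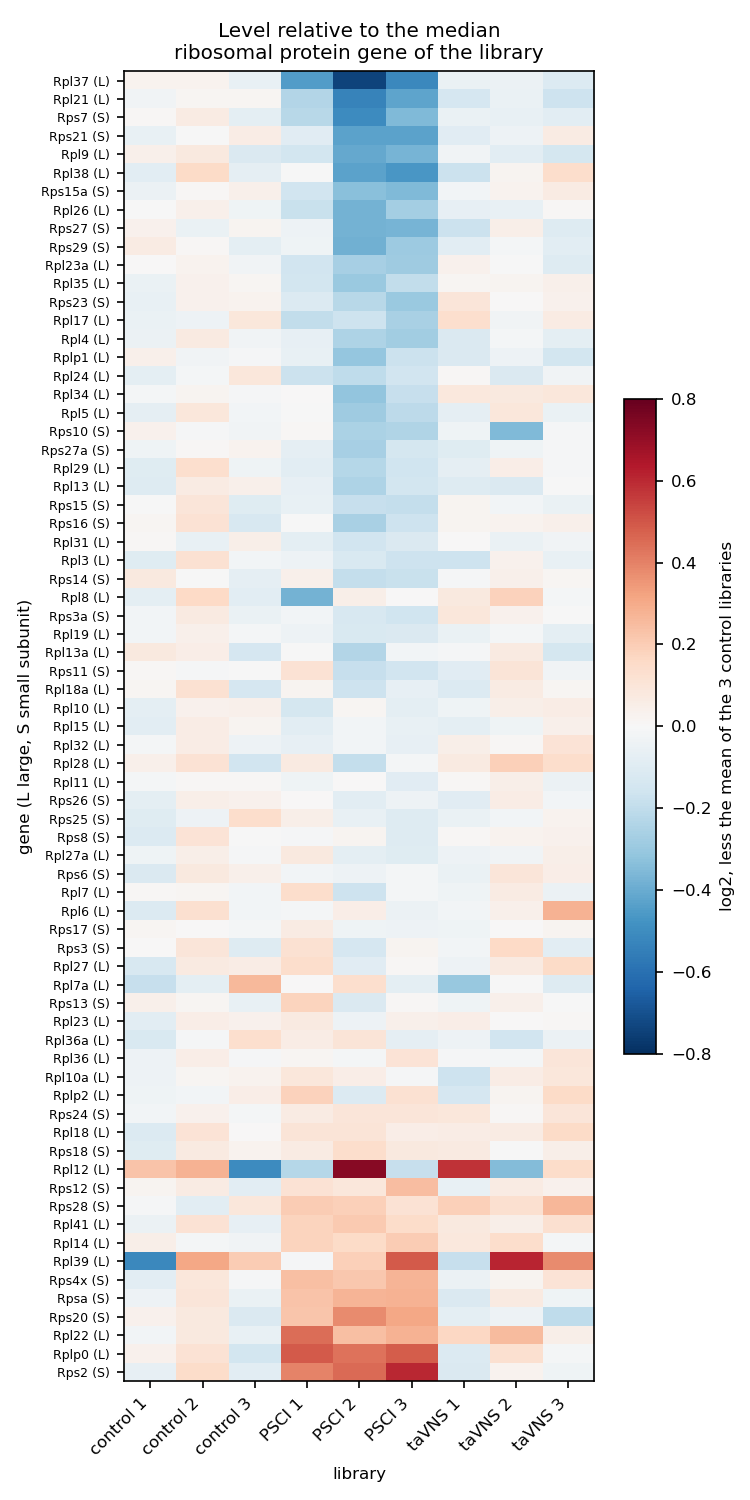
Level of 71 ribosomal protein genes (y axis, L large and S small subunit, Rpl30 and 1 other left out) in each library (x axis), relative to the library's median member and less the mean of the 3 control libraries (log2, colour scale), in the order of the PSCI mean. The PSCI columns run from Rpl37 (mean difference -0.57) at the top to Rps2 (0.48) at the bottom, and single rows such as Rpl12 and Rpl39 vary within every group.

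Across the 9 libraries the members moved together: over 2556 pairs of members, Rpl30 left out, Pearson's r had a median of 0.866 and a range of -0.299 to 0.995, and 2546 pairs were above 0. This is a description over 9 libraries that share group, depth and scaling. It has no value for other genes beside it, and none without PSCI 2, the highest library for 51 of the 73 members. The lowest correlations with the median member belonged to Rpl37 (0.31), Rpl39 (0.48), Rpl38 (0.57) and Rpl21 (0.68).

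Per length, the highest members were Rps29 with a mean of 1571 RPKM over the 9 libraries, Rpl37 with 1274, Rpl38 with 1159, Rps23 with 1110 and Rpl21 with 1025. The lowest were Rpl39 with 46.3 RPKM, Rpl28 with 95.8, Rpl15 with 98.2, Rpl7a with 110.2 and Rpl36a with 135.  The 3 highest are genes whose deposited values imply a very short effective length, namely 64.6 bases for Rps29, 96.5 for Rpl37 and 56.8 for Rpl38, against a median of 327 over members and 2422 over all genes, and RPKM of such genes depends strongly on that length.

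None of the genes at the ends of this scale passed the test in either comparison. Rps29 differed by 0.05 ± 0.140 log2 in PSCI against control and by -0.21 ± 0.140 in taVNS against PSCI, and Rps23, a protein of the decoding site, by 0.10 ± 0.147 and -0.14 ± 0.147. Rpl15 and Rpl28 differed by 0.27 ± 0.160 and 0.25 ± 0.146 log2 in PSCI against control. Rpl39, a very small protein of the exit tunnel, was at 4.49, 5.81 and 5.80 CPM in control, 5.18, 8.86 and 9.92 CPM in PSCI and 4.76, 6.99 and 6.70 CPM in taVNS. Its groups overlapped (0.57 ± 0.268 log2, adjusted p = 0.220).

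Rpl30 and Rpl12, 2 large subunit genes, varied within groups far more than the others. Rpl30 was at 0.276, 44.98 and 43.05 CPM in control, at 0.0682, 104 and 54.4 CPM in PSCI and at 101, 0 and 52.5 CPM in taVNS. It was near 0 in control 1 and PSCI 1 and at 0 in taVNS 2. Its fitted difference in PSCI against control, the highest of all members (0.85 ± 1.72 log2), is smaller than its SE. Rpl12 was at 135, 102 and 63.9 CPM in control, 80.4, 231 and 112 CPM in PSCI and 145, 65.0 and 102 CPM in taVNS (0.49 ± 0.429 log2, adjusted p = 0.531). Its groups overlapped throughout. How the counting assigned their reads was not tested.

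Ribosomal genes outside the naming rule gave mixed values. Of 9 tested, 0 were called in either direction in PSCI against control or taVNS against PSCI (edgeR, with 2 higher and 2 lower in turn at an unadjusted p under 0.05). The shares of all genes were 9.85% and 5.75% called, and 16.2% higher and 14.1% lower at that unadjusted level. Rack1, a signalling scaffold on the small subunit head, was at 183, 167 and 151 CPM in control, 174, 260 and 236 CPM in PSCI and 169, 156 and 168 CPM in taVNS (0.42 ± 0.145 log2, adjusted p = 0.108). Fau, which encodes a ribosomal protein fused to a ubiquitin-like protein, differed by 0.01 ± 0.127 log2. Rps27l, a paralogue of Rps27 known as a p53 target, had 1.00 ± 0.277 log2 (adjusted p = 0.0531), with 7.18, 4.89 and 5.95 CPM in control and 7.43, 15.7 and 12.9 CPM in PSCI. By gene identifier, 3 further entries of the tables carry another symbol in GRCr8, found after the data were seen. These are Rps19, the gene most often mutated in Diamond-Blackfan anaemia (0.36 ± 0.144 log2 in PSCI against control, adjusted p = 0.157), Rps9 (0.52 ± 0.173, adjusted p = 0.0960) and Rpl35a (-0.12 ± 0.352, adjusted p = 0.880). The deposited symbols are Rps19l2, Rps9l1 and Rpl35al1. The entry Rpl35al1 was low, with means of 3.79 CPM in control, 3.50 CPM in PSCI and 4.27 CPM in taVNS.

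Other gene lists were set beside the family, and the lists were not tested against each other. Of 40 translation factors, 1 rose in PSCI and the same gene fell in taVNS: Pabpc1, the poly(A)-binding protein, itself translated from a messenger with an oligopyrimidine tract, at 142, 115 and 106 CPM in control, 180.4, 259 and 238 CPM in PSCI and 118, 129.5 and 121 CPM in taVNS. No PSCI value overlapped those of the other groups (0.90 ± 0.151 log2, adjusted p = 0.0079, and -0.88 ± 0.151, adjusted p = 0.0141). Among all genes 7.71% were called higher in PSCI against control and 4.91% lower in taVNS against PSCI. The list medians were 0.11 and -0.22 log2. At an unadjusted p under 0.05 in edgeR's test, 6 of the 40 were higher and 3 lower in PSCI against control. For this and the next lists the shares of all genes were 16.2% and 9.11%. In taVNS against PSCI 0 were higher and 16 lower, against 7% and 14.1% of all genes. All taVNS values lay below all PSCI values in 18 of the 40, against 15.2% of all genes, and above them in 2, against 10.6%. Low values in taVNS against PSCI were thus not particular to the ribosomal protein genes. Of 39 genes of ribosome biogenesis 0 passed in either comparison (1 higher and 1 lower, then 1 higher and 3 lower, at an unadjusted p under 0.05), with medians of 0.03 and -0.03, and of 74 mitochondrial ribosomal protein genes 0 passed (1 higher and 3 lower, then 1 and 1), with medians of -0.09 and -0.00. For the respiratory chain and ATP synthase, 94 tested genes were taken by symbols starting with Nduf, Cox, Uqcr or Atp5, whether or not they encode subunits. Of these, 7 fell in PSCI (against 2.14% of all genes), 0 rose and 0 passed in taVNS against PSCI. At an unadjusted p under 0.05, 0 were higher and 41 lower, then 11 higher and 0 lower, with medians of -0.24 and 0.11. Of these 7, Uqcrc2, a core subunit of complex III, had the smallest p (-0.43 ± 0.0812 log2, adjusted p = 0.0122). The next were 3 subunits of complex I, Ndufb9 (-0.56 log2, adjusted p = 0.0142), Ndufs3 (-0.38, adjusted p = 0.0196) and Ndufb10 (-0.34, adjusted p = 0.0273).

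In the mTOR pathway, 2 of 26 genes rose in PSCI (against 7.71% of all genes) and 1 fell in taVNS (against 4.91%). Those that rose were Mtor, its kinase, and Castor1, an arginine sensor (1.55 ± 0.407 log2, adjusted p = 0.0439, at no more than 3.38 CPM in PSCI). Mtor was the gene that fell. At an unadjusted p under 0.05 in edgeR's test, 5 were higher and 2 lower, then 5 higher and 5 lower. The shares of all genes were 16.2% and 9.11%, then 7% and 14.1%. For Mtor the deposited counts and RPKM disagreed. Its counts gave 389.5, 400.7 and 570.7 CPM in PSCI against 103 to 127 CPM in control (1.95 ± 0.164 log2, 3.87-fold, adjusted p = 3.5e-04), while its RPKM were 44.1, 38.6 and 33.7 against 12.1 to 15.1, a 2.79-fold difference with the PSCI libraries in another order. The size of its difference is therefore not settled by the files. The median of the list was -0.09 in PSCI against control and 0.08 in taVNS against PSCI.

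Marker lists of other cells differed between the groups as well. In bulk tissue more cells of a type and more RNA per cell cannot be told apart. In PSCI against control, 50% of all genes had values above 0, 7.71% were called higher and 2.14% lower. In taVNS against PSCI, 0.842% of all genes were called higher and 4.91% lower. The sum of 10 cell division genes was 58.2 to 62.4 CPM in control, 180.4, 531 and 290.5 CPM in PSCI libraries 1 to 3 and 54.5 to 71.1 CPM in taVNS, and all 10 rose in PSCI and fell in taVNS. The sum of 13 microglial genes was 309.7 to 399.5 CPM in control, 664, 1042 and 812.5 CPM in PSCI and 416 to 500.3 CPM in taVNS, with 10 of 13 called higher in PSCI and 7 of 13 called lower, 1 higher, in taVNS. The sum of 11 genes of reactive astrocytes was 678 to 1256 CPM in control, 4754, 9464 and 7642 CPM in PSCI and 921 to 1468 CPM in taVNS, and all 11 rose and fell in turn. Of 12 neuronal genes, 11 had values below 0 in PSCI against control (median -0.33 log2) and 1 fell. Of 8 endothelial genes, 8 had values above 0 and 1 rose. The sum of the red blood cell genes was 119.4 to 129 CPM in control, 36.8, 47.6 and 109.6 CPM in PSCI and 186.5 to 437 CPM in taVNS, and 4 of 6 tested rose in taVNS against PSCI. Oligodendrocyte markers summed to 4969 CPM in PSCI 2 and to 8840 CPM or more elsewhere. No marker was at 0 in all libraries (0 in each list). In the ribosomal protein share, where PSCI 1 was in the control range, the PSCI libraries stood in the order 2, 3, 1. The sums of cell division, microglial and reactive astrocyte genes had the same order. So did those of endothelial, meningeal, translation factor, ribosome biogenesis, mitochondrial ribosomal and respiratory chain genes, so the order was not particular to those cells. The sums of neuronal, oligodendrocyte, mTOR pathway and red blood cell genes had other orders. PSCI 1 still lay above every control and taVNS library in the cell division, microglial and reactive astrocyte sums. The part of these cells in the levels of the ribosomal protein genes was not tested. The 696 other genes shorter than 600 bases had medians of -0.02 log2 in PSCI against control and -0.04 in taVNS against PSCI.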

How the data were processed

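Poly(A)-selected RNA was made into dUTP libraries and sequenced as DNA nanoballs, per the labels' protocols. The submitters' processing notes name HISAT2 2.0.4, RSEM 1.2.8 and mRatBN7.2 without giving their roles; the annotation is not given in the sources used here. The deposited tables hold expected counts, many of them fractional, and RPKM per gene and library. Expected counts were rounded to whole numbers, filtered with filterByExpr, scaled by TMM and fitted over all 9 libraries with edgeR 4.0.16 (quasi-likelihood F test, group only, 6 residual degrees of freedom, R 4.3.3), with Benjamini-Hochberg adjustment over 14840 genes and a threshold of 0.05. The SE is the size of the log2 fold change divided by the square root of F. CPM are counts scaled to library size after TMM. DESeq2 1.42.0, limma 3.58.1 (voom, and log2 RPKM plus 0.1 or 1), other scalings and filters, a replicate block and leaving out single libraries were alternatives. The test was checked on simulated data. Exact binomial 95% intervals cover counting error only, and p-values set the group differences against the spread between these libraries.

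The members and lists were chosen with earlier results of these data known. Named members were the called ones (up to 12 in each direction and comparison, by p), the 3 highest and 3 lowest fitted differences, the 5 highest and 5 lowest by RPKM, and members with known roles; of related lists, up to 4 called genes in each direction. Relative levels, genes under other symbols and the ratio without Rps2 and Rpsa were chosen after values were seen. Start sequences were taken from RefSeq (GRCr8); no coordinates of another build are given. Some genes, 1 member among them, are counted but not reported by name here.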

Additional observations from a re-analysis of the deposited data

How the results depend on the processing

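The number of called ribosomal protein genes depended on the settings more than the direction of their differences did. In PSCI against control it was 4, and 8 by DESeq2, 0 with only the 2 groups compared, 0 with a replicate block, 0 with libraries scaled to the ribosomal protein counts and 0 without the libraries PSCI 2 and taVNS 3, and it ran from 0 to 22 when 1 library was left out. In taVNS against PSCI it was 5, and 9 by DESeq2, 2 by limma-voom, 1 with only the 2 groups compared, 2 on log2 RPKM plus 0.1 and 2 plus 1, 0 with the replicate block, 0 scaled to the ribosomal protein counts and 0 without PSCI 2 and taVNS 3, and it ran from 0 to 27 when 1 library was left out. The scaling to the ribosomal protein counts and the removal of both libraries were chosen after seeing the data. The labels do not say that a replicate number pairs libraries. Correlations of deviations from the group means ran from -0.514 to 0.298 for same-numbered libraries and from -0.426 to 0.497 for the others. With 3 libraries a group these values cannot decide whether numbers pair libraries, and why calls were lost with the block was not tested. Without 1 library fewer samples were tested, and the cause of the other differences was not tested.

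With libraries scaled to the ribosomal protein counts the median of the large subunit was -0.0143 and that of the small 0.0052 in PSCI against control, and 0.0302 and -0.0011 in taVNS against PSCI, as that scaling sets the family near 0. The mean share of the family was 1.37% in control, 1.694% in PSCI and 1.311% in taVNS without the 100 other genes with the highest counts, and 7.223% in control, 8.509% in PSCI and 6.983% in taVNS as a share of RPKM.

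No called member changed direction (0 of the 8 calls reported by name, under any alternative run). Members that were not called changed sign as follows, in log2. In PSCI against control Rpl38 had -0.015 with RLE scaling and by DESeq2, -0.0055 with no filter on low counts and -0.013 with genes left out where counts and RPKM disagree, and Rps7 had 0.0044 on either RPKM scale. In taVNS against control Rps23 had 0.0017 with total count scaling, Rpl41 -0.001 with no filter, Rpl30 -0.49 by limma-voom and -0.84 on log2 RPKM plus 0.1, and Rpl41 -0.0055 on either RPKM scale. In taVNS against PSCI Rpl30 had 1.53 with the replicate block. Scaled to the ribosomal protein counts, PSCI against control gave Rpl10 -0.0198, Rpl15 -0.0088, Rpl28 -0.0003, Rpl3 -0.063, Rpl38 -0.24, Rpl4 -0.15, Rpl5 -0.12, Rplp1 -0.13, Rps10 -0.12, Rps15a -0.23, Rps23 -0.16, Rps27a -0.11 and Rps29 -0.19. The same scaling gave, in taVNS against PSCI, Rpl10 0.049, Rpl11 0.0022, Rpl21 0.24, Rpl28 0.14, Rpl3 0.0062, Rpl30 0.39, Rpl38 0.25, Rpl39 0.014, Rpl4 0.086, Rpl5 0.12, Rplp1 0.038, Rps15a 0.27, Rps23 0.22, Rps27a 0.073, Rps29 0.13, Rps6 0.019 and Rps7 0.25, and in taVNS against control, Rpl10 0.029, Rpl11 0.0082, Rpl38 0.0065, Rplp0 0.0083, Rplp2 0.023, Rps15a 0.032, Rps23 0.052, Rps3 0.027, Rps4x 0.037 and Rps6 0.0398. Without PSCI 2 and taVNS 3, PSCI against control gave Rpl30 -0.12, Rpl38 -0.067, Rpl4 -0.0015, Rps15a -0.084, Rps23 -0.034 and Rps29 -0.0076, taVNS against PSCI gave Rpl30 0.90, and taVNS against control gave Rpl41 -0.043.

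When 1 library was left out, PSCI against control ran from -0.18 to 0.03 for Rpl21, from -0.16 to 0.088 for Rps7, from -0.092 to 0.10 for Rpl38, from -0.064 to 0.14 for Rps15a, from -0.052 to 0.24 for Rps29, from -0.10 to 1.43 for Rpl30 and from -0.014 to 0.21 for Rps23. In taVNS against PSCI it ran from -0.96 to 0.92 for Rpl30 and from -0.18 to 0.0077 for Rps15a. In taVNS against control it ran from -0.14 to 0.037 for Rpl10, -0.18 to 0.048 for Rpl11, -0.18 to 0.011 for Rpl38, -0.15 to 0.0066 for Rpl5, -0.20 to 0.068 for Rplp0, -0.17 to 0.052 for Rplp2, -0.15 to 0.054 for Rps15a, -0.11 to 0.0704 for Rps23, -0.25 to 0.027 for Rps29, -0.16 to 0.072 for Rps3, -0.11 to 0.044 for Rps4x, -0.10 to 0.026 for Rps6, -0.18 to 0.0044 for Rpsa, -0.074 to 0.20 for Rpl28, -0.07 to 0.12 for Rpl41, -0.019 to 0.24 for Rps28, -0.0007 to 0.20 for Rpl22 and -0.15 to 1.38 for Rpl30. With 3 libraries a group, the spread between libraries rather than the counting error limits these values.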
